A study of Mus musculus with 189 samples.

Results

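Klf2, Klf4, Esrrb and Tbx3 encode transcription factors of the naive pluripotency network, and their transcripts were followed from the mature oocyte to the early blastocyst in single cells, small groups of cells and whole mouse embryos. The 4 genes were taken by name and function and not by their values, from 192 assays on the chip. All 4 are among the 156 assays marked as passed in the deposited table. On the mouse genome build GRCm38.p6, RefSeq places Klf2 at chr8:72319062-72321654, Klf4 at chr4:55527137-55532475, Esrrb at chr12:86361117-86521628 and Tbx3 at chr5:119670534-119684724. The position of the amplicons within the genes is not given in the sources used here.

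Oocytes came from superovulated F1 females (C57BL/6 x DBA/2), and embryos from such females mated to C57BL6 males were grown in KSOMaa at low oxygen. The 168 samples of the main set comprised 11 MII oocytes, which are mature and unfertilized, 14 zygotes, 21 samples of the 2-cell stage, 7 of the 3-cell stage, 12 of the 4-cell stage, 27 of the 8-cell stage, 26 blastomere samples of the 16-cell morula and 50 blastomere samples of the 32-cell blastocyst. The 2-, 4- and 8-cell samples each include 3 whole embryos. Late blastomere samples were single cells (20 of 26 and 32 of 50) or small groups of cells from 2 morulae and 7 blastocysts. A further 3 whole 16-cell embryos, 3 whole 32-cell embryos, 1 isolated inner cell mass (ICM), 1 isolated trophectoderm (TE) and 10 dilutions of embryonic stem cell (ESC) RNA were described apart from the main set. The labels of the 26 morula blastomere samples name both a morula and a blastocyst as source, and these samples were placed at the 16-cell stage by their titles and stage label. Apart from the hormones used for superovulation, no treatment or genetic change is named, and the age of the females is not given in the sources used here.

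Krüppel-like factors Klf2 and Klf4 are zinc finger proteins that bind GC-rich DNA, and with Esrrb, an orphan nuclear receptor, and the T-box factor Tbx3 they help to hold embryonic stem cells in the naive state. That state resembles the preimplantation epiblast, which arises within the ICM, whereas the outer cells of the embryo form the TE. Klf4 is also 1 of the factors used to reprogram somatic cells, while LIF signalling sustains Klf4 and inhibition of Gsk3 sustains Esrrb in cultured stem cells.

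RefSeq promoter windows (GRCm38.p6) are printed to show how unlike the start regions of these genes are. Each window holds 300 bases, which reach from upstream of an annotated start to just past it. The RefSeq table matched 3 of the 4 genes, all but Tbx3. They lie at chr8:72318812-72319111 on the plus strand for Klf2, at chr4:55532426-55532725 on the minus strand for Klf4, and at chr12:86360867-86361166 and chr12:86421394-86421693 on the plus strand for 2 annotated starts of Esrrb. Capitals mark GC boxes (GGGCGG, or CCGCCC on the other strand), the type of GC-rich element bound by Sp and Krüppel-like factors.
Klf2 promoter: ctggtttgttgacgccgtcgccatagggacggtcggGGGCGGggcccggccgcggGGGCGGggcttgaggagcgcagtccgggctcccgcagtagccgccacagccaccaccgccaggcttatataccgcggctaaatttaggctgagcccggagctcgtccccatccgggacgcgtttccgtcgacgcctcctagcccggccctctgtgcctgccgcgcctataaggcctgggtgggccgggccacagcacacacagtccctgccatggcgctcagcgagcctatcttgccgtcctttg
Klf4 promoter: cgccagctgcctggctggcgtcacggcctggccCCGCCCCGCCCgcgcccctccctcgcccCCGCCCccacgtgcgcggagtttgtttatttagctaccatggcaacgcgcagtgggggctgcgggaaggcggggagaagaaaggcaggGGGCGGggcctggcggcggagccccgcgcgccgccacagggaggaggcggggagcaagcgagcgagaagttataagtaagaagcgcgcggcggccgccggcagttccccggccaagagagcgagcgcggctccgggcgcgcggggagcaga
Esrrb upstream promoter: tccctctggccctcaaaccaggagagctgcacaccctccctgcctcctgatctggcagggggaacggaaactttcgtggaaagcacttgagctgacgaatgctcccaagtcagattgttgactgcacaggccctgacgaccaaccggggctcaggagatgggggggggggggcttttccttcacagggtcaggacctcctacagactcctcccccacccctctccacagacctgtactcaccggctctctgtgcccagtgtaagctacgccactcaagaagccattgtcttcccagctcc
Esrrb downstream promoter: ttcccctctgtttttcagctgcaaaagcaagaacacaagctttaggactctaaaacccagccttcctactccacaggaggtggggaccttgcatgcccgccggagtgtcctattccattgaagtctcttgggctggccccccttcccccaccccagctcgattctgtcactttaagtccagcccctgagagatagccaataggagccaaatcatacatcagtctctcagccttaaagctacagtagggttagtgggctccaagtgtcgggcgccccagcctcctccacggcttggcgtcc
Klf2 held 2 GC boxes and Klf4 held 4, of which 2 overlap, while neither Esrrb window held any. Such a box occurs in 35.7% of 32851 RefSeq mouse promoters. GC content was 69.3% for Klf2, 74.3% for Klf4 and 60% and 55.3% for Esrrb, with a median of 52.7% over all promoters. AAGGTCA (or TGACCTT), the core half-site of Esrrb, occurs in 4.72% of promoters, and TATAAA (or TTTATA) in 13.6%. Neither was found in the 4 windows. These matches describe the letters in the windows and say nothing of binding.

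Transcript levels are given as log2 values: 30 minus the cycle threshold (Ct) of the gene, minus the same quantity averaged over the control genes Hnrnpr, Ssu72 and Ube2e1. A step of 1 therefore stands for 1 PCR cycle, and a Ct of 30 marks a gene not detected, whose value is an upper bound that depends on the sample. Of all deposited Ct values 6 lay above 30, none of them of these 4 genes. Mean control Ct, the only measure of input here, had medians of 12.9 in MII oocytes, 13.0 in zygotes, 15.4 in 8-cell blastomeres, 16.0 in 16-cell blastomeres and 17.7 in 32-cell blastomeres, and it lay between 10.2 and 13.5 in the whole 16- and 32-cell embryos. The assays of different genes are not calibrated against each other, so levels were compared within a gene only. Differences between stages were tested with limma on 58 oocyte or embryo means. All stages shared 1 estimate of the spread per gene. Intervals of Esrrb at later steps of this fit therefore also hold its wide spread in MII oocytes (SD 2.98) and zygotes (SD 3.76). Relative to their own mean, the control genes were not level at every step. From zygote to 2 cells Hnrnpr differed by 0.85 (adjusted p = 1.34e-07), Ube2e1 by −1.01 (adjusted p = 8.99e-09) and Ssu72 by 0.16 (adjusted p = 0.305). In whole embryos from 16 to 32 cells Hnrnpr differed by −0.97 (adjusted p = 0.0239), Ssu72 by 1.02 (adjusted p = 0.00737) and Ube2e1 by −0.05 (adjusted p = 0.901). The labels do not say that numbered samples of a group came from separate animals, so p-values measure the spread between these samples only. As levels are relative to the control genes, fewer cells of a type and less RNA per cell cannot be told apart in embryo means and whole embryos.

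Maternal levels differed in kind between the genes. Klf4 was detected in all 25 oocytes and zygotes, with −1.84, −1.52 and −0.04 as lowest, median and highest value in MII oocytes and −1.96, −1.14 and −0.21 in zygotes. Klf2 was also detected in every one, at −4.41, −3.79 and −2.56 in MII oocytes and −4.92, −3.97 and −2.40 in zygotes, as was Tbx3, at −5.03, −4.49 and −3.86 and at −4.89, −4.37 and −3.66. Within each of these genes the oocyte and zygote ranges overlapped almost wholly.

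Esrrb was undetected or near the limit of detection in most samples before cleavage. It was detected in 6 of 11 MII oocytes and in 5 of 14 zygotes. The detected oocytes lay at −8.31 and −10.48 and, for the other 4, between −14.23 and −14.05, which corresponds to a Ct of 26.8 to 27.2. In zygotes 4 samples lay between −9.45 and −8.95, 1 at −13.64, and the 9 others were not detected. The oocyte at −8.31 (Ct 21.34) and these 4 zygotes (Ct 21.98 to 22.27) lay above −10, the study's threshold of expression. Undetected samples lay below every detected one at both stages. Oocytes and zygotes spread over much the same wide range, with no separation of the 2 stages.

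None of the 4 genes passed the test between MII oocytes and zygotes, where 1.92% of all genes did. Differences (zygote minus MII) were −0.23 for Klf2 (95% interval −1.03 to 0.58, adjusted p = 0.775), 0.15 for Klf4 (−0.42 to 0.72, adjusted p = 0.797), 0.01 for Esrrb (−1.96 to 1.97, adjusted p = 0.997) and 0.14 for Tbx3 (−0.31 to 0.59, adjusted p = 0.765). The interval of Esrrb was the widest of the 4.

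**Figure D1:**
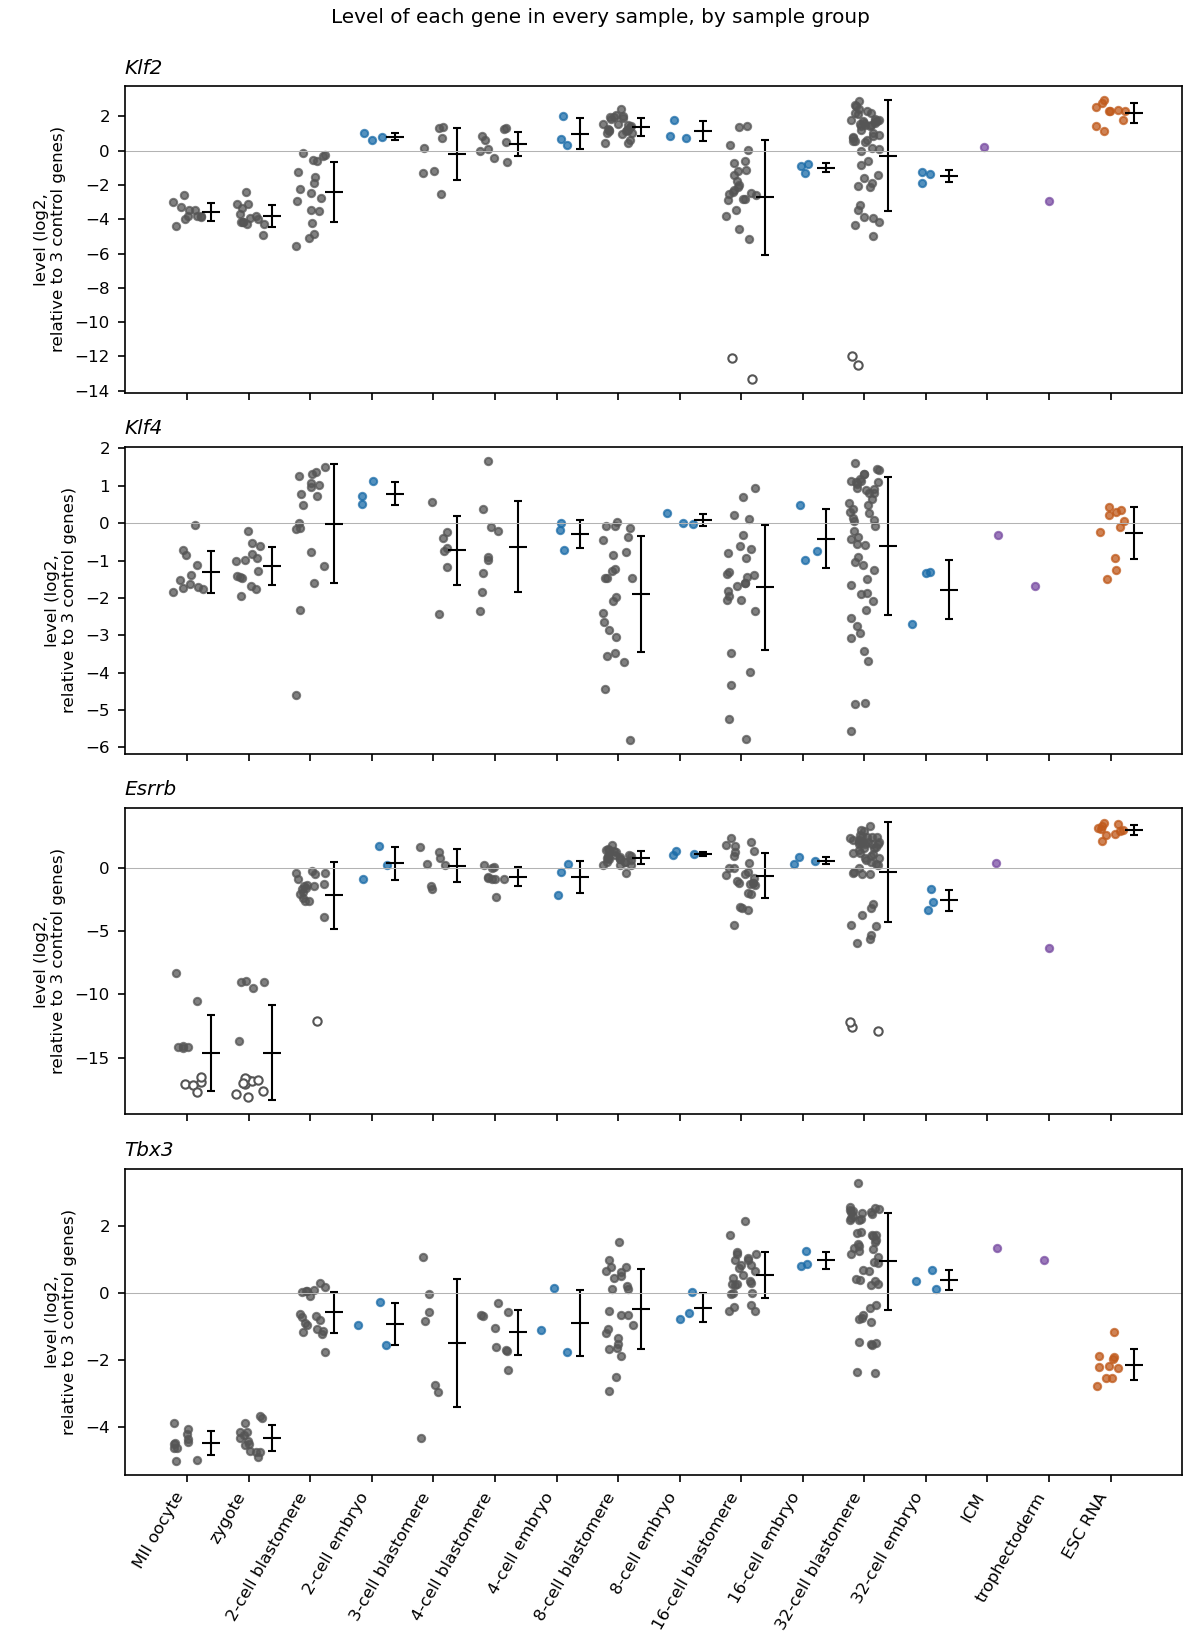
Level of Klf2, Klf4, Esrrb and Tbx3 (log2, relative to 3 control genes) in every sample, with 1 point per sample and sample groups along the horizontal axis; open points were not detected. Esrrb rises from between −18.10 and −8.31 in oocytes and zygotes to a median of −1.55 in 2-cell blastomeres, and Klf2 spreads down to −13.30 in 16-cell blastomeres.

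All 4 genes were higher at the 2-cell stage than in zygotes, although on Ct values without normalization Klf2 was lower without passing (−0.50, adjusted p = 0.503), Klf4 was called lower (−1.43, adjusted p = 0.0169) and Tbx3 did not pass (0.71, adjusted p = 0.0935). Over all genes, 29.5% were called higher, 39.1% lower and 68.6% in either direction in this comparison, with a median difference of −0.33. The largest rise of the 4 was that of Esrrb, by 13.72 ± 1.08 (SE, 95% interval 11.56 to 15.88, adjusted p = 2.05e-16, 14 zygotes and 8 units of the 2-cell stage). Since Esrrb was undetected in 9 zygotes, the size of this rise depends on how undetected values are treated, and it was 9.24 with them left out and 8.88 with all values floored at −10, in both cases past the threshold. The 2-cell units lay wholly above the zygotes for Esrrb, Tbx3 and Klf4 but not for Klf2, and the ranges of 35.3% of all genes did not overlap between these stages. Tbx3 rose by 3.71 ± 0.25 (adjusted p = 2.61e-19), Klf2 by 2.51 ± 0.44 (adjusted p = 1.57e-06) and Klf4 by 1.57 ± 0.31 (adjusted p = 1.53e-05).

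The 2-cell samples were not of 1 kind. Labelled 2c.A, 18 blastomere samples had a mean control Ct of 16.8, and 11 of them carry no embryo name and were averaged as 1 unit, whereas 3 whole 2-cell embryos had a mean control Ct of 14.5. Klf2 lay at 1.02, 0.78 and 0.63 in the whole embryos and at −5.56, −2.34 and −0.11 (lowest, median, highest) in the 2c.A blastomeres. The 2 kinds of sample did not overlap for Klf2. Whole embryos exceeded the 2c.A units by 3.38 ± 0.54 (95% interval 2.29 to 4.48, adjusted p = 4.43e-06), in a comparison added after the data were seen, in which 22.4% of all genes passed.

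No such difference passed the test for the other 3 genes, at 0.59 for Klf4 (adjusted p = 0.389), 1.97 for Esrrb (adjusted p = 0.445) and −0.48 for Tbx3 (adjusted p = 0.406). Klf4 lay at 0.74, 0.52 and 1.12 in the whole embryos and at −4.61, 0.61 and 1.51 in the blastomeres, and Tbx3 between −1.54 and −0.26 against −1.76, −0.71 and 0.31. Esrrb was detected in 17 of 18 blastomeres (−12.11, −1.55 and −0.24) and lay at −0.92, 0.24 and 1.71 in the whole embryos. The rise of Klf2 from the zygote was 1.24 with the 2c.A units alone (adjusted p = 0.00607) and 4.62 with the whole embryos alone. With single cells only it was 1.17 and did not pass (adjusted p = 0.0554), and with every sample as a replicate and the embryo as a random block it was 1.94 (adjusted p = 0.0600). What sets the 2c.A samples apart was not tested, and input moved with it as the control Ct shows.

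Between the 2-cell and 4-cell stages, Klf2 rose by a further 2.06 ± 0.54 (95% interval 0.99 to 3.14, adjusted p = 0.00284), and Klf4 fell by 0.99 (95% interval −1.76 to −0.22, adjusted p = 0.0412), a direction that turned to 0.29 without normalization and a call that held in 9 of 18 alternatives. Esrrb (0.15, adjusted p = 0.951) and Tbx3 (−0.45, adjusted p = 0.233) did not pass. In this comparison 7.05% of all genes were called higher, 25.6% lower and 32.7% in either direction. The Klf2 rise rests on the 2c.A samples: against the 2c.A units alone it was 3.33, while against the 3 whole 2-cell embryos alone it was −0.05 (adjusted p = 0.987). Among whole embryos only, none of the 4 genes passed between 2 and 4 cells, where 0.641% of all genes did.

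At the 4-cell stage Klf2 lay at −0.66, 0.53 and 1.31 in 9 blastomeres and at 0.66, 1.99 and 0.33 in whole embryos. Esrrb lay at −2.29, −0.81 and 0.23 in the blastomeres and at −0.36, −2.12 and 0.30 in the embryos, and Klf4 at −2.35, −0.90 and 1.67 and at −0.71, 0.02 and −0.17. The same samples held Tbx3 at −2.28, −1.03 and −0.29 and at −1.76, 0.17 and −1.09. Blastomeres and whole embryos overlapped for each gene at this stage.

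At the 8-cell stage Klf2 reached its highest mean over units, 1.28 ± 0.42 (SD, n = 7 units), with 0.42, 1.32 and 2.42 in 24 blastomeres and 1.81, 0.76 and 0.87 in whole embryos. Esrrb lay at −0.40, 0.79 and 1.83 in the blastomeres and at 1.29, 0.99 and 1.06 in the embryos, and its mean of 0.92 ± 0.25 was its highest too. Klf4 ranged down to −5.79 in single blastomeres (median −1.47, highest 0.04) but lay at 0.26, −0.03 and 0.01 in whole embryos. Tbx3 lay at −2.91, −0.60 and 1.54 and at −0.77, −0.58 and 0.05. Blastomeres of 8-cell embryos thus held Klf2 and Esrrb within narrow ranges and Klf4 and Tbx3 within wide ones.

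None of the 4 genes passed between the 4- and 8-cell stages, where 49.4% of all genes were called, 13.5% higher and 35.9% lower. Klf2 differed by 0.52 (95% interval −0.59 to 1.63, adjusted p = 0.470), Klf4 by −0.38 (−1.17 to 0.41, adjusted p = 0.47), Esrrb by 1.65 (−1.06 to 4.36, adjusted p = 0.338) and Tbx3 by 0.69 (0.07 to 1.31, adjusted p = 0.0589). The Esrrb interval is wider than the spread at these 2 stages, as oocytes and zygotes enter the shared estimate. Esrrb units lay between −2.12 and 0.30 at 4 cells (SD 0.81) and between 0.48 and 1.29 at 8 cells (SD 0.25). Whole embryos alone gave no call either, against 36.5% of all genes (7.69% higher and 28.8% lower), with Esrrb nearest to the threshold at 1.85 (adjusted p = 0.0613).

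Klf2 fell at the transition from 8 to 16 cells. Its level dropped by 4.01 ± 0.80 in embryo means of blastomeres (95% interval −5.61 to −2.41, adjusted p = 0.000119, 7 and 2 units), in a comparison where 8.33% of all genes were called lower, 19.9% higher and 28.2% in either direction. Blastomeres of the 16-cell stage lay at −13.30, −2.36 and 1.45, so that the lowest and the median were below every 8-cell sample while the highest was not. In whole embryos the fall was 2.14 ± 0.42 (95% interval −3.06 to −1.22, adjusted p = 0.00364, 3 and 3 embryos, with 3.21% of all genes called lower, 16% higher and 19% in either direction), although without normalization whole embryos differed by 0.28. The 3 whole 16-cell embryos lay at −0.80, −0.88 and −1.30, all below the 3 whole 8-cell embryos. The call in whole embryos was lost without the embryos numbered 1 (−1.90, adjusted p = 0.101).

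Low single cells weigh more in a mean of log2 values than in the transcript content of an embryo. When the Klf2 signal of the cells of an embryo was summed on the linear scale, 4 8-cell embryos gave 0.92 to 1.74 (mean 1.32) and the 2 16-cell embryos −1.49 and −1.12 (mean −1.31). Sums of the 2 stages did not overlap, as the whole embryos did not. Among embryo means, the ranges of 36.5% of all genes did not overlap between these stages. The share for sums and for whole embryos was not counted.

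Klf4 (−0.78, 95% interval −1.92 to 0.36, adjusted p = 0.382), Esrrb (−1.53, −5.44 to 2.38, adjusted p = 0.624) and Tbx3 (0.93, 0.04 to 1.82, adjusted p = 0.124) did not pass between 8 and 16 cells in embryo means, and whether their changes differed from that of Klf2 was not tested. The Esrrb interval again holds the spread of oocytes and zygotes. Its units lay between 0.48 and 1.29 at 8 cells and at −0.70 and −0.53 at 16 cells. In whole embryos Tbx3 stood just outside the threshold at 1.41 (adjusted p = 0.0545), Esrrb at −0.55 (adjusted p = 0.630) and Klf4 at −0.49 (adjusted p = 0.492). In 16-cell blastomeres Esrrb lay at −4.52, −0.70 and 2.32, Klf4 at −5.77, −1.51 and 0.94 and Tbx3 at −0.54, 0.49 and 2.16. Whole 16-cell embryos held Esrrb at 0.83, 0.57 and 0.29, Klf4 at 0.48, −0.98 and −0.74 and Tbx3 at 1.27, 0.87 and 0.80, within the range of the blastomeres for each gene.

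**Figure D2:**
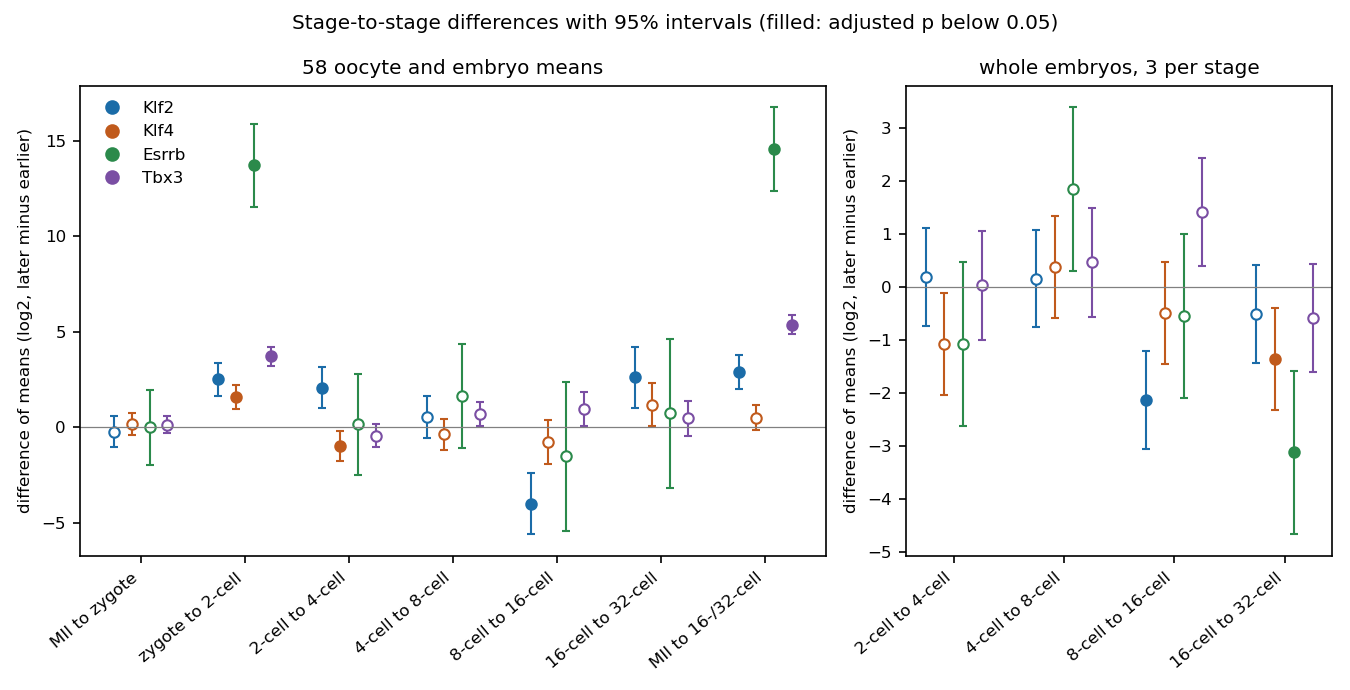
Difference of means between consecutive stages (log2, later minus earlier) with 95% intervals, for oocyte and embryo means and for whole embryos; filled points passed an adjusted p of 0.05. Klf2 falls from 8 to 16 cells in both sets (−4.01 and −2.14; 0.28 for whole embryos without normalization), and from 16 to 32 cells its estimate is 2.63 in embryo means and −0.51 in whole embryos.

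From the 16- to the 32-cell stage, blastomeres and whole embryos gave different accounts. In embryo means of blastomeres Klf2 rose by 2.63 ± 0.80 (95% interval 1.03 to 4.23, adjusted p = 0.0186), where 8.97% of all genes were called higher. Klf4 (1.19, 95% interval 0.05 to 2.33, adjusted p = 0.192), Esrrb (0.74, −3.17 to 4.65, adjusted p = 0.862) and Tbx3 (0.46, −0.43 to 1.35, adjusted p = 0.540) did not pass. The Klf2 call was lost when either of the 2 16-cell embryos was left out, at 2.96 and 2.30.

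In whole embryos, Esrrb fell by 3.13 ± 0.71 (95% interval −4.67 to −1.58, adjusted p = 0.00737) and Klf4 by 1.37 ± 0.44 (−2.33 to −0.40, adjusted p = 0.0326), where 23.1% of all genes were called lower, 9.62% higher and 32.7% in either direction. With 3 embryos a stage these calls were fragile, as leaving out the embryos of any 1 number lost that of Klf4 (−1.87 to −1.08), and leaving out number 1 or 2 lost that of Esrrb (−3.45 and −3.04). Klf2 (−0.51, adjusted p = 0.392) and Tbx3 (−0.59, adjusted p = 0.374) did not pass. Esrrb lay at −1.65, −2.73 and −3.32 in the whole 32-cell embryos, Klf4 at −1.31, −1.34 and −2.68, Klf2 at −1.26, −1.35 and −1.91 and Tbx3 at 0.70, 0.35 and 0.12. For Esrrb, Klf4 and Tbx3 all 3 values lay below all 3 of the whole 16-cell embryos, and for Klf2 2 of the 3 did. How many of all genes separate in this way was not counted. The median difference over all genes was −0.56, close to those of Tbx3 and Klf2.

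In 32-cell blastomeres, by contrast, Klf2 had a median of 0.81 (−12.48 to 2.88), Klf4 of −0.01 (−5.57 to 1.61), Esrrb of 1.17 (−12.88 to 3.30) and Tbx3 of 1.33 (−2.37 to 3.31). Whole 32-cell embryos lay below the blastomere means by 1.40 for Klf2 (−1.40, adjusted p = 0.0218) and by 1.25 for Klf4 (−1.25, adjusted p = 0.0176), with −2.69 for Esrrb (adjusted p = 0.174) and −0.61 for Tbx3 (adjusted p = 0.174). In that comparison, added after the data were seen, 41.7% of all genes passed. At the 16-cell stage none of the 4 genes passed between whole embryos and blastomere means, against 4.49% of all genes.

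The change from 16 to 32 cells itself differed between whole embryos and blastomere means for Klf2, by −3.14 ± 0.85 (adjusted p = 0.00656), and for Klf4, by −2.55 ± 0.73 (adjusted p = 0.0106). It did not pass for Esrrb (−3.86, adjusted p = 0.384) or Tbx3 (−1.05, adjusted p = 0.269), while 16% of all genes passed.

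Lineage genes moved with these levels. A lineage score was computed as the mean of 9 ICM genes minus the mean of 8 TE genes, leaving out the 4 genes described here. The study chose both gene sets by clustering on these same samples, with Klf2, Klf4 and Esrrb in its core ICM set. The score is therefore not independent of the samples or of these genes. It was above 0 in 40 of 50 blastomere samples of the 32-cell stage (80%, median 5.95) and in 9 of 26 of the 16-cell stage (34.6%, median −3.05). In whole embryos it lay between −1.22 and −0.72 at 16 cells and between −3.43 and −2.82 at 32 cells. The isolated ICM scored −0.43 and the isolated TE −3.91, both below 0. Most 32-cell blastomere samples thus scored above the isolated ICM, and the whole 32-cell embryos lay between the isolated ICM and TE. In those blastomere samples the mean of the ICM genes had a median of 0.77 (0.28 in the isolated ICM). That of the TE genes had a median of −5.65 (0.71 in the isolated ICM). The part of the score in the differences of Klf2 and Klf4 was not tested. Summed on the linear scale, sampled 32-cell blastomeres gave a mean of 0.88 for Klf2, 0.12 for Klf4, 1.27 for Esrrb and 1.37 for Tbx3 over 7 embryos.

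The isolated ICM and TE, with 1 sample each and therefore no test, differed for each of the 4 genes in favour of the ICM. Esrrb lay at 0.35 in the ICM and −6.34 in the TE, Klf2 at 0.21 and −2.95, Klf4 at −0.31 and −1.67, and Tbx3 at 1.34 and 1.00. The ICM sample exceeded the TE sample by 6.69 for Esrrb, 3.16 for Klf2, 1.36 for Klf4 and 0.34 for Tbx3. Markers in the 2 samples were mixed. Cdx2 (0.43 in the ICM and 1.84 in the TE) and Gata3 (1.53 and 2.73) were higher in the TE sample and Sox2, an epiblast gene, was higher in the ICM sample (−0.17 and −6.01). Tead4 was level (0.36 and 0.36), and the trophectoderm-associated genes Krt19 (−4.95 and −7.90) and Hand1 (−3.66 and not detected) were higher in the ICM sample.

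Over the whole course, MII oocytes were lower than 16- and 32-cell embryo means by 14.58 for Esrrb (adjusted p = 1.31e-17), by 5.37 for Tbx3 (adjusted p = 2.65e-26) and by 2.90 for Klf2 (adjusted p = 6.39e-08), the last turning to −1.40 without normalization and −0.66 in the deposited normalized values. Klf4 differed by 0.50 (95% interval −0.14 to 1.14, adjusted p = 0.135), and its direction turned without normalization (−3.80) and in the deposited normalized values (−3.06), both past the threshold. Klf4 was called higher without 1 of the 16-cell embryos (0.70, adjusted p = 0.0434), without Ssu72 (0.98), with the sample median (0.83) and with 3 further samples added (0.70), so its direction depended on the scaling. Of all genes, 37.8% were called higher and 84.6% in either direction. Ordered by their stage means, neighbouring stages had overlapping unit ranges in every case except 2. These were the 2-cell stage above the zygote for Esrrb, by 13.72, and the 3-cell stage above the zygote for Tbx3, by 2.57.

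Over late blastomeres of both stages together, Klf2, Klf4 and Esrrb were higher where ICM genes were high relative to TE genes. Tbx3 followed more weakly, and not in morulae. Over 76 blastomere samples of the 16- and 32-cell stages, after subtraction of embryo means, the Spearman coefficient with the lineage score was 0.74 for Esrrb, 0.64 for Klf4, 0.63 for Klf2 and 0.37 for Tbx3. Among 156 genes these ranked 3, 7, 8 and 34, and the median coefficient of all genes was 0.09 (range −0.89 to 0.80). The points share the library, its control genes and, in sets of 3 to 13, an embryo, so these are descriptions. On these samples the study had also clustered Klf2, Klf4 and Esrrb with the ICM genes of the score. Their high ranks follow in part from that choice. The Spearman coefficient with the control Ct was −0.01 for Klf2, −0.11 for Klf4, 0.19 for Esrrb and 0.19 for Tbx3, and that of the score itself was 0.17.

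At the 16-cell stage alone (26 samples) the Spearman coefficient was 0.72 for Klf2, 0.57 for Klf4, 0.72 for Esrrb and 0.04 for Tbx3. At the 32-cell stage alone (50 samples) it was 0.47, 0.67, 0.68 and 0.45 in the same order. The median over all genes was 0.23 at the 16-cell stage and 0.06 at the 32-cell stage. Tbx3 was thus nearly flat against the score in morulae, where it ranked 108 of 156 genes and Klf4 ranked 21. Against the ICM genes alone, Esrrb ranked first of all 156 genes at 0.81, followed among the 4 genes by Klf2 at 0.73, Klf4 at 0.71 and Tbx3 at 0.42. Against the TE genes alone, with the sign turned, the values were 0.62, 0.52, 0.56 and 0.31. Both sets came from the study's clustering of these samples, in which Klf2, Klf4 and Esrrb took part. Values with either set alone are therefore no separate support for the relation.

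**Figure D3:**
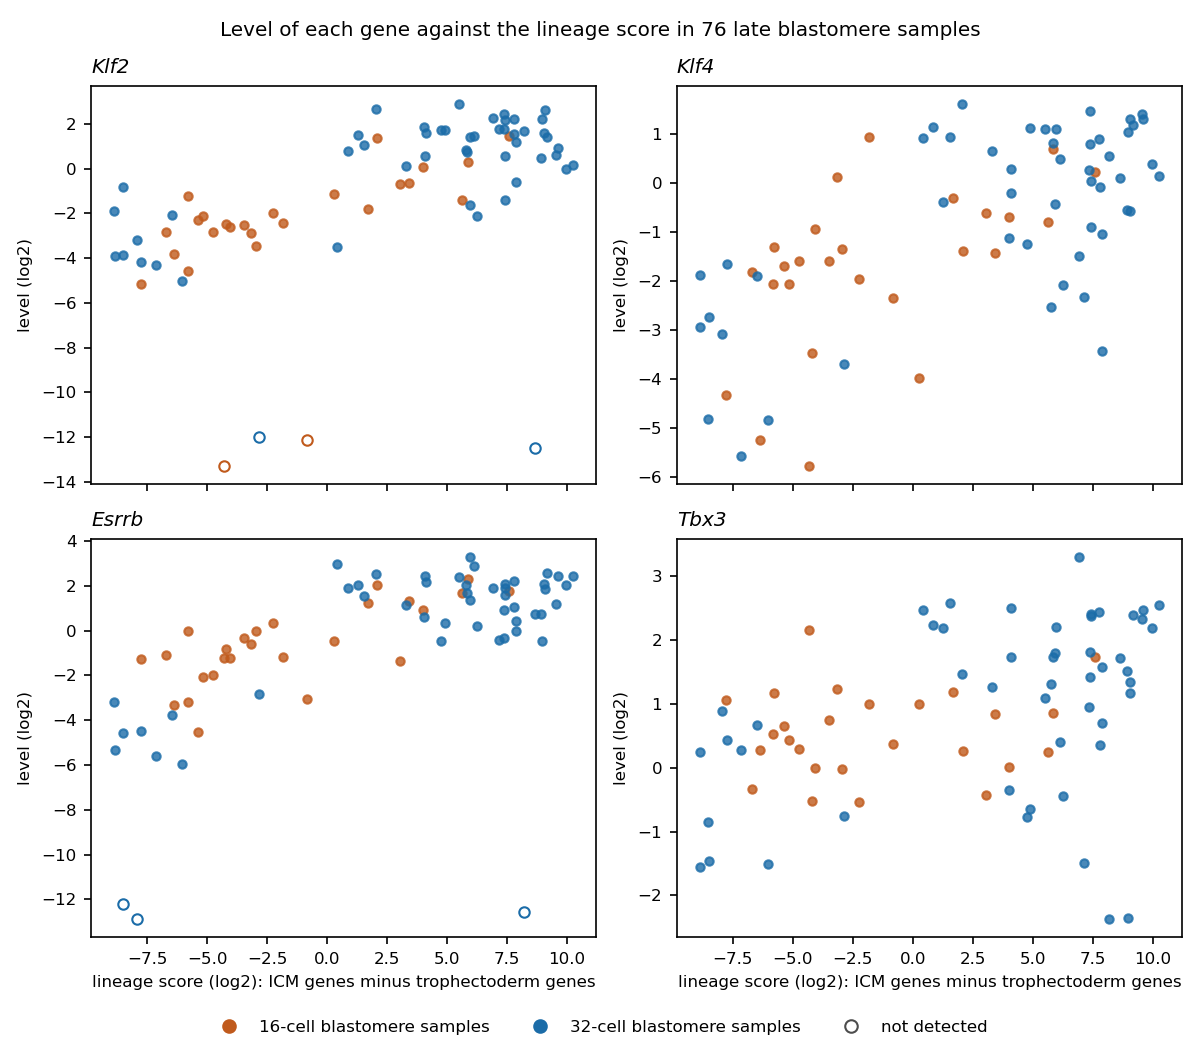
Level of each gene (log2) against the lineage score (mean of 9 ICM genes minus mean of 8 TE genes, log2) in 26 blastomere samples of the 16-cell and 50 of the 32-cell stage; open points were not detected. Klf2, Klf4 and Esrrb rise with the score (Spearman coefficients 0.63, 0.64 and 0.74 after subtraction of embryo means), and Tbx3 does so less (0.37).

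Single embryos show the spread behind these values. In 1 morula the sample with the lowest score (−7.77) had Klf2 at −5.14, Klf4 at −4.32, Esrrb at −1.26 and Tbx3 at 1.06. Its sister sample with the highest score (7.58) had 1.45, 0.22, 1.79 and 1.74. In the other morula the lowest sample (−6.39) had −3.80, −5.23, −3.32 and 0.28, and the highest (3.99) had 0.06, −0.68, 0.94 and 0.01. Klf2, Klf4 and Esrrb differed in the same direction in both pairs of sisters, and Tbx3 did not.

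Of the 7 blastocysts, 4 held samples with scores on both sides of 0. In 1 of them the lowest sample (−7.15) had Klf2 at −4.32, Klf4 at −5.57, Esrrb at −5.59 and Tbx3 at 0.27, against 0.15, 0.14, 2.42 and 2.55 in the highest (10.26). In the second the lowest (−8.85) had −3.92, −1.87, −5.31 and 0.24, against −0.04, 0.39, 2.01 and 2.19 in the highest (9.97). In these 2 all 4 genes were higher in the sample with more ICM gene signal.

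The third of them did the same, with −1.89, −2.94, −3.20 and −1.56 in the lowest sample (−8.88) and 0.90, 1.31, 2.42 and 2.47 in the highest (9.61). In the fourth the lowest (−7.93) had −3.18, −3.08, no detected Esrrb and 0.89, while the highest (8.95) had 2.21, 1.04, −0.48 and −2.35, so that Tbx3 ran the other way. In the 3 other blastocysts every sample had a score above 0. In 1 of these, with 5 samples, the Spearman coefficient with the score was −0.70 for Klf2, −0.20 for Klf4, −0.20 for Esrrb and −0.10 for Tbx3, against the direction over all samples.

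Detection was nearly complete in late blastomeres. Klf4 and Tbx3 were detected in all 76 samples, all 4 genes in 69, and none lacked more than 1 gene. Klf2 was not detected in 4 samples (24 of 26 and 48 of 50 detected), and Esrrb in 3 (47 of 50 detected at the 32-cell stage). Samples without Klf2 had scores of −4.31, −0.83, −2.86 and 8.64, and those without Esrrb −7.93, −8.52 and 8.19. Samples that lacked either gene thus lay on both sides of 0, most of them below it. Counted from the lowest score of the stage, those without Klf2 ranked 9 and 17 of 26 and 10 and 41 of 50. Those without Esrrb ranked 5, 3 and 40 of 50. The control Ct of these 7 samples lay between 16.7 and 18.02, where the 16-cell samples without Klf2 ranked 3 and 1 from the highest control Ct of their 26 and the 32-cell samples ranked 21 to 35 of their 50. Whether these are true absences or missed amplification was not tested.

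Among late blastomeres, Klf2, Klf4 and Esrrb varied together, and Tbx3 varied with Esrrb. The Spearman coefficient over the 76 samples was 0.60 for Klf2 and Klf4, 0.60 for Klf2 and Esrrb and 0.62 for Klf4 and Esrrb. With Tbx3 it was 0.59 for Esrrb, 0.36 for Klf4 and 0.15 for Klf2, and the median over all pairs of genes was 0.08. Across the 58 oocyte and embryo means, where the zygote to 2-cell step weighs most, Pearson's r was instead highest for Esrrb and Tbx3 at 0.89, followed by Klf2 and Esrrb at 0.81 and Klf2 and Tbx3 at 0.71. Klf4 had 0.32 with Klf2, 0.35 with Esrrb and 0.39 with Tbx3.

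Spread between single sister cells was larger at 16 and 32 cells than at 4 and 8 cells for Klf2 and Esrrb. The mean SD within embryos for Klf2 was 0.389 in 9 cells of 3 4-cell embryos, 0.441 in 24 cells of 4 8-cell embryos, 3.90 in 20 cells of 2 16-cell embryos and 3.17 in 32 cells of 7 32-cell embryos. For Esrrb it was 0.599, 0.489, 1.82 and 2.09, while the median over all genes was 0.437, 0.611, 0.917 and 1.09. The late SDs of Klf2 rest in part on undetected cells, 2 of them among the 20 single 16-cell blastomeres. With undetected values left out, an alternative added after the data were seen, the SD of Klf2 was 1.82 at 16 cells and 2.03 at 32 cells, that of Esrrb 1.82 and 1.55, and the median gene 0.784 and 0.831.

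Klf4 was uneven between sisters already before that stage, with an SD of 0.984 at 4 cells and 1.00 at 8 cells, 1.67 at 16 and 1.22 at 32. Tbx3 had 0.515, 0.917, 0.723 and 1.11, near or below the median gene from the 16-cell stage with all values kept. With undetected values left out, the median gene was 0.784 at 16 and 0.831 at 32 cells. Tbx3, detected in every late sample, was then below it at 16 cells and above it at 32 cells (rank 36 of 151). The SD of the control genes over the same embryos lay between 0.116 and 0.475.

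ESC RNA gave a reference profile for the same assays. All 4 genes were detected in all 10 dilutions, at 1.16, 2.32 and 2.95 (lowest, median, highest) for Klf2, −1.49, −0.02 and 0.43 for Klf4, 2.14, 3.02 and 3.54 for Esrrb and −2.78, −2.18 and −1.15 for Tbx3. The 6 ICM and epiblast markers were detected in all of them.

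Per doubling of RNA, the Ct of the 4 genes changed by −1.16, −0.99, −1.17 and −0.96 (Klf2, Klf4, Esrrb, Tbx3) in 1 dilution series (25 to 200 pg) and by −1.07, −1.17, −1.02 and −0.89 in another (32 to 800 pg). Control genes changed by −1.13 and −1.12. A doubling of RNA thus moved every gene by about 1 cycle. Means of the 3 sets of dilutions were 2.38, 2.60 and 1.45 for Klf2, 0.10, 0.18 and −1.22 for Klf4 and 3.13, 3.24 and 2.48 for Esrrb. The last set lay wholly below the others for these 3 genes but not for Tbx3, with −2.30, −2.06 and −2.05.

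**Figure D4:**
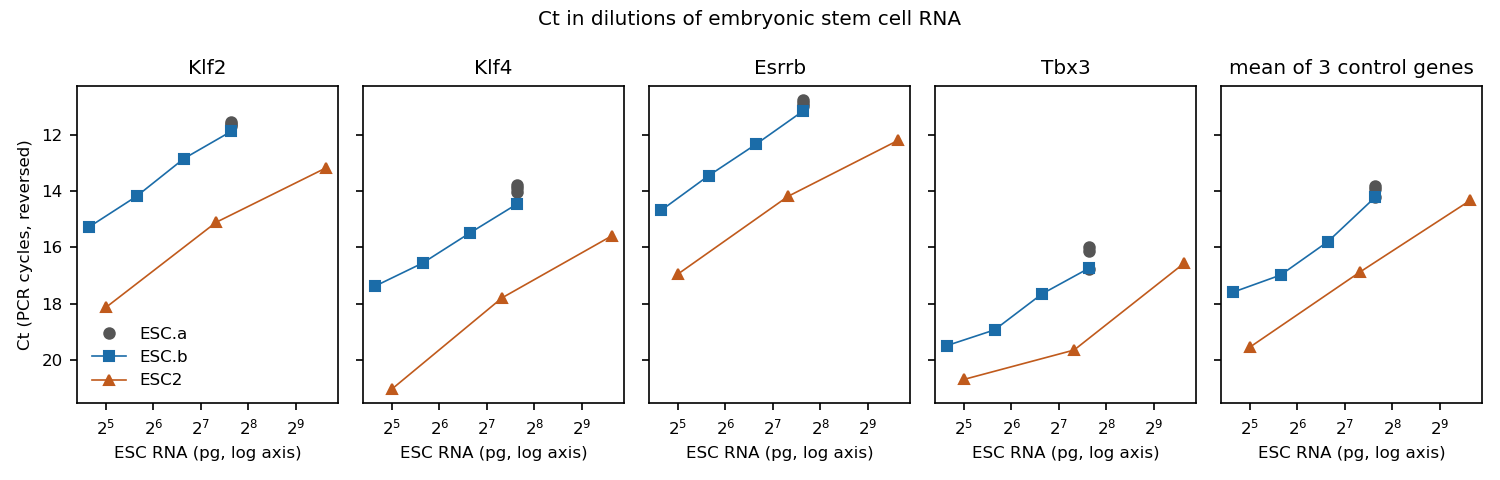
Ct of each gene and of the control genes (PCR cycles, reversed axis) against the amount of ESC RNA (pg, log axis), with 1 point per sample and lines joining a dilution series. Every line rises with the amount of RNA, at close to 1 cycle per doubling.

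Late blastomeres and ESC RNA differed gene by gene. None of the 76 blastomere samples lay above the highest ESC value for Klf2 or Esrrb, and 52 and 64 of them lay below the lowest. For Klf4, 21 lay above and 27 below the ESC range. Tbx3 was the reverse, with 70 samples above the highest ESC value and none below the lowest. ESC medians minus blastomere medians were 2.62 for Klf2, 0.71 for Klf4, 2.50 for Esrrb and −3.10 for Tbx3. ESC dilutions are repeats of RNA and not separate cells or cultures, so no test was made.

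Other genes of the pluripotency network, a list of 9 measured genes fitted relative to the control genes alone, did not follow the 4 genes at every step. From zygote to 2 cells 5 of the 9 rose, 3 fell and 1 did not pass, where 29.5% of all genes rose and 39.1% fell. Nanog was higher by 9.61, Fgf4 by 8.99, Tet1 by 7.68, Prdm14 by 7.51 and Zfp42 by 5.79, and Pou5f1 (−1.17), Pecam1 (−1.21) and Dppa3 (−1.09) were lower. Zygote means of Nanog (−16.37) and Fgf4 (−16.56) lay at the level of undetected genes, so the sizes of these rises depend on how undetected values are treated. From 4 to 8 cells, where none of the 4 genes passed, 3 of the list rose (Nanog by 4.38, Zfp42 by 2.92 and Pou5f1 by 2.05) and Sox2 fell by 4.03. From 8 to 16 cells, where Klf2 fell, Nanog (3.59) and Pou5f1 (1.29) rose and 7 did not pass, among them Prdm14 at −4.31 (adjusted p = 0.265) and Fgf4 at −2.19 (adjusted p = 0.57). From 16 to 32 cells 2 rose, Sox2 by 8.32 and Pecam1 by 2.80, and Dppa3, a maternal factor, fell by 1.39. Sox2 averaged −10.85 at 8 and −10.65 at 16 cells, below the study's threshold of expression of −10. The sizes of its changes may thus depend on how undetected values are treated. In whole embryos Sox2 rose from 8 to 16 cells instead (4.73, limma adjusted p = 0.0043), with 0.16 from 16 to 32 cells (adjusted p = 0.890). Pecam1 (−1.84) and Dppa3 (−1.98) fell in whole embryos from 16 to 32 cells, beside Esrrb and Klf4.

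Of 5 genes of FGF signalling, the pathway that sets epiblast apart from primitive endoderm, 2 rose (the ligand Fgf4 and the receptor Fgfr3, by 7.94) and 2 fell (the receptor Fgfr2, by 3.66, and the kinase Mapk3, by 2.63) from zygote to 2 cells, in a comparison where 68.6% of all genes were called. None passed from 8 to 16 or from 16 to 32 cells in embryo means. Against the lineage score, the Spearman coefficient was 0.75 for Tet1, 0.70 for Sox2, 0.70 for Pecam1, 0.61 for Prdm14, 0.37 for Nanog, 0.37 for Fgf4 and −0.42 for Fgfr2. Esrrb therefore lay beside Tet1 in this order, and Tbx3 beside Nanog and Fgf4.

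Genes most like each of the 4 were named by the highest Pearson's r over 58 oocyte and embryo means and the highest Spearman coefficient over 76 late blastomere samples. Over the stages they were Kdm3b (0.861), Hdac1 (0.843) and Tead4 (0.841) for Klf2, Tead4 (0.944), Hdac1 (0.930) and Eif1a (0.914) for Esrrb, and Nanog (0.944), Tead4 (0.899) and Eif1a (0.893) for Tbx3. Klf4 had no close match, its highest being Kdm4b (0.525), Nf2 (0.503) and Jmjd4 (0.499). Within late blastomeres they were Tet1 (0.681), Pecam1 (0.651) and Hdac1 (0.630) for Klf2, Pecam1 (0.621), Esrrb (0.620) and Prdm14 (0.599) for Klf4, Ezh1 (0.827), Pdgfra (0.811) and Tet1 (0.759) for Esrrb, and Pou5f1 (0.675), Esrrb (0.593) and Gata6 (0.585) for Tbx3. Apart from Hdac1 for Klf2, no gene was among the closest matches of the same gene on both scales.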

How the data were processed

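Single cells, groups of blastomeres and whole embryos were measured by quantitative PCR on Fluidigm BioMark chips after reverse transcription and preamplification in 1 reaction. The authors deposited a Ct score per gene and sample, in PCR cycles, with undetected genes set to 30, and a second table in log2 units. The values show that the deposited log2 table is relative to Gapdh, Hspa8 and Lmnb1, whereas the methods name Hnrnpr, Ssu72 and Ube2e1, so levels were computed from the Ct relative to the latter and the deposited log2 values were kept as an alternative. Of 192 assays, 36 marked as failed were left out, which leaves 156. No read depth exists for qPCR, and the control Ct stands in for input. There is 1 measurement per gene and sample.

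Blastomeres were averaged per embryo into 58 units. Units were compared with limma 3.58.1 (R 4.3.3), all stages in 1 fit, with Benjamini-Hochberg adjustment over 156 genes and a threshold of 0.05. A second fit used the whole embryos alone, 3 per stage. The fits were tested on simulated data. The Spearman coefficient with the lineage score and other summaries used Python 3.11.15, numpy 2.4.6, pandas 2.3.3 and scipy 1.17.1, with embryo means subtracted. Where every sample was a replicate, the consensus correlation within embryos was 0.0988.

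The genes, the lists and the tests were chosen with earlier results of these data known. Genes named are the 4 genes, their 3 closest matches on each of 2 measures, members of the pluripotency and FGF lists that passed, and lineage markers.

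Alternatives were each control gene left out, no normalization, the sample median, the deposited log2 table, a floor at −10, undetected values left out, all 192 assays, 3 further samples that the study had left out, whole embryos added, single cells only, an embryo block, replicates left out and a replicate block. Added after the data were seen were the 2c.A units alone, the whole 2-cell embryos alone, whole embryos in place of blastomere means, the SD between sisters without undetected values, and the tests of whole embryos against blastomeres.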

Additional observations from a re-analysis of the deposited data

Results flagged for a closer look

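The change from the 16- to the 32-cell stage differed between whole embryos and embryo means of blastomeres for Klf2, by −3.14 (SE 0.85, limma adjusted p = 0.00656), and for Klf4, by −2.55 (SE 0.73, limma adjusted p = 0.0106). Klf2 differed by −0.51 between the 3 whole embryos of each stage and by 2.63 between blastomere means, and Klf4 by −1.37 and 1.19. The blastomere means rest on 2 morulae. The difference was tested on the main scale alone, in a comparison added after the data were seen.

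No sample of the 20 groups of 4 to 10 samples that were examined stood apart from the others of its group for any of the 4 genes.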

How the results depend on the processing

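Each single difference that passed the threshold was set beside its value under each alternative, and each such pair was counted. Of these pairs, 205 kept the direction and the side of the threshold, 26 kept the direction but lost the call, and 8 turned. The fall of Klf2 from 8 to 16 cells held in all 19 alternatives (−5.89 to −2.27), as did the rises of Esrrb (9.90 to 15.06) and Tbx3 (1.07 to 5.85) from MII to 16 and 32 cells, and that of Esrrb from zygote to 2 cells in all 18 (8.88 to 14.95). The fall of Klf4 from 2 to 4 cells held in 9 of 18 and the rise of Klf2 from 16 to 32 cells in 12 of 19. The Spearman coefficient with the lineage score stayed above 0 for each of the 4 genes under every alternative run. The cause of the changes below was not tested.

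Scaling moved all genes. Without normalization the median difference over all genes was −3.33 from zygote to 2 cells (−0.33 with the control genes), −1.04 from 8 to 16 cells (0.32), −1.81 from 16 to 32 cells (0.16), −4.65 from MII to 16 and 32 cells (−0.35), and, in whole embryos, 2.79 from 8 to 16 (0.37) and −2.46 from 16 to 32 cells (−0.56). In the deposited log2 values these were −0.78, −1.55, −0.99, −3.91, −1.78 and −0.75. The share of calls that were higher from 8 to 16 cells was 70.5% of 44 with the control genes, 6.25% of 16 without normalization, 48.6% of 37 with the sample median and 3.80% of 79 in the deposited values. From zygote to 2 cells it was 42.99% of 107, 16.1% of 137, 45.05% of 111 and 33.6% of 119.

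Counts of the 4 genes past the threshold were 4 from zygote to 2 cells, 2 from 2 to 4, 0 from 4 to 8, 1 from 8 to 16, 1 from 16 to 32 and 3 from MII to 16 and 32 cells, and in whole embryos 0, 0, 1 and 2 from 2 to 4 cells onwards. Without normalization 2 passed from zygote to 2 cells, 1 from 2 to 4 and 0 from 16 to 32. Over all 156 genes, 137, 36 and 52 were called at these steps. In whole embryos without normalization 1, 3 and 4 passed from 4 to 8, 8 to 16 and 16 to 32. Over all genes 27, 132 and 97 were called there, of which 66.7%, 100% and 2.06% were higher. Most genes thus passed in whole embryos from 8 to 16 and from 16 to 32. In the deposited values 2 passed from 8 to 16 and 0 from 16 to 32, where 79 and 43 of all genes were called. In whole embryos 1 passed from 4 to 8 and 3 from 8 to 16, where 59 and 105 of all genes were called. With the sample median 1 passed from 2 to 4 and 1 from 4 to 8, where 45 and 73 of all genes were called. In whole embryos 1 passed from 4 to 8 and 1 from 16 to 32, where 61 and 54 of all genes were called. For the alternatives that follow, counts over all genes are not given here. Without Hnrnpr 0 passed from 16 to 32. Without Ssu72 1 passed from 4 to 8 and 2 from 16 to 32, and in whole embryos 2 from 8 to 16 and 1 from 16 to 32. Without Ube2e1 1 passed from 2 to 4 and 1 from 4 to 8, and in whole embryos 1 from 4 to 8 and 2 from 8 to 16. A floor at −10 gave 1 from 4 to 8 and 2 in whole embryos from 8 to 16. From 2 to 4 cells 1 passed with the 3 left-out samples added, 1 with whole embryos added, 1 with single cells only, 1 with the 2c.A units alone, 0 with every sample in an embryo block and 0 with whole 2-cell embryos alone. With whole embryos added 2 passed from 8 to 16 and 0 from 16 to 32, as with whole embryos in place of blastomere means. Leaving out each replicate in turn, counts were 0 to 1 from 4 to 8 and 0 from 16 to 32, and in whole embryos 0 to 1 from 4 to 8, 0 to 1 from 8 to 16 and 0 to 1 from 16 to 32.

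Directions that turned without normalization were those of Klf2 (−0.50) and Klf4 (−1.43) from zygote to 2 cells, Klf4 (0.29) and Tbx3 (0.83) from 2 to 4, Tbx3 (−0.43) from 8 to 16, Klf4 (−0.78), Esrrb (−1.23) and Tbx3 (−1.51) from 16 to 32, Klf2 (−1.40) and Klf4 (−3.80) from MII to 16 and 32 cells, Esrrb (−0.0028) from MII to zygote, and in whole embryos Klf2 (0.28), Klf4 (1.92) and Esrrb (1.86) from 8 to 16. In the deposited values they were Esrrb (−0.15) from 2 to 4, Tbx3 (−0.95) from 8 to 16, Esrrb (−0.42) and Tbx3 (−0.70) from 16 to 32, Klf2 (−0.66) and Klf4 (−3.06) from MII to 16 and 32 cells, and in whole embryos Klf2 (−0.17) and Tbx3 (−0.33) from 2 to 4 and Tbx3 (−0.73) from 8 to 16. The sample median turned Klf4 (0.092) from 4 to 8. Without Hnrnpr Esrrb (−0.13) and Tbx3 (−0.0027) turned from MII to zygote, and in whole embryos Klf2 (−0.074) and Tbx3 (−0.23) from 2 to 4 and Klf2 (−0.17) from 4 to 8, and without Ube2e1 Tbx3 (−0.024) in whole embryos from 2 to 4. With whole embryos added Klf4 (0.0069) turned from 8 to 16 and Esrrb (−0.77) from 16 to 32. With whole embryos in place of blastomere means Klf4 (0.53) turned from 8 to 16, and Klf2 (−0.51), Klf4 (−1.37), Esrrb (−3.13) and Tbx3 (−0.59) from 16 to 32. With whole 2-cell embryos alone Klf2 (−0.052) and Esrrb (−1.08) turned from 2 to 4. Leaving out replicates among whole embryos gave −0.33 to 0.45 for Klf2 from 2 to 4, −0.18 to 0.44 for Tbx3 from 2 to 4, −0.34 to 0.84 for Klf2 from 4 to 8.

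Numbers shared by samples do not pair them, as the correlation of deviations was −0.26 to 0.25 over 11 pairs of MII oocytes and zygotes and −0.38 to 0.41 over 30 pairs of whole embryos. With a replicate block, 0 of the 4 genes passed between MII oocytes and zygotes (Esrrb 0.73, Klf2 −0.09, Klf4 0.16, Tbx3 0.23), and the counts in whole embryos stayed 0, 0, 1 and 2.

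Precision is limited by 2 embryos at the 16-cell stage, 3 whole embryos a stage and an input of single cells. A Ct of 30 sets no measured level, so differences that involve undetected Esrrb or Klf2 are bounds set by the control Ct.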
